A study of Homo sapiens with 4 samples.

Results

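The hypoxia-inducible factor (HIF) pathway was followed in Caki-1, an established line from a human renal cell carcinoma, after knockdown of the transcription factor TFE3. It was represented by 32 genes of the 61533 gene identifiers in the count table, with the glycolytic enzymes left out. They were the HIF subunits, the enzymes that sense oxygen, the ubiquitin ligase subunit VHL, and targets known from renal carcinoma. The rule names the genes and uses no measured value, but the genes were chosen with earlier results of these data known. Lentivirus had delivered short hairpin RNA against TFE3 (shTFE3, 2 libraries) or control hairpin RNA (shControl, 2 libraries). Both arms grew in McCoy's medium with 10% fetal bovine serum, were replated 24 hours after infection, received puromycin at 1 µg/ml 12 hours later and were harvested after 3 days of selection. The labels give no number of hairpins and do not say whether an arm's libraries stem from separate infections, and p-values therefore measure only the spread between these libraries, which may be technical. The labels mention no low-oxygen treatment, and give 37 °C and 5% CO2 for both arms.

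HIF is a pair of an oxygen-labile alpha subunit, encoded by HIF1A or EPAS1, and the stable partner ARNT. With oxygen present, the prolyl hydroxylases encoded by EGLN1, EGLN2 and EGLN3 modify the alpha subunit, the VHL ubiquitin ligase binds the modified protein, and the proteasome destroys it. HIF1AN, an asparaginyl hydroxylase, blocks the binding of coactivators. Most of this control acts on protein, and mRNA levels do not report it. Clear cell renal carcinoma is known for loss of VHL and constant HIF activity, whereas Caki-1 is usually described as carrying an intact VHL gene. TFE3 is a helix-loop-helix leucine zipper factor that binds the E-box CACGTG, whose letters contain the core ACGTG of HIF response elements.

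Library totals lay between 17270180 and 17742519 counts. TFE3 had 70.1 and 66.9 CPM (normalised read counts, relative to library size with TMM factors) in shTFE3 and 131 and 128 CPM in shControl, a fall in the direction of the labels (log2 fold change -0.92, SE 0.062, edgeR adjusted p 5.6e-11). In these bulk libraries, fewer cells that express a gene and less of its RNA per cell cannot be told apart. Among markers of renal epithelium, the factor PAX8 had 465 and 464 CPM in shTFE3 and 424 and 454 CPM in shControl. The keratin gene KRT8 had 329 and 349 CPM in shTFE3 and 369 and 364 CPM in shControl. KRT18 and CDH16 were also detected, and PAX2 had 0 counts in all 4 libraries. The 8 markers of leukocytes, endothelium and fibroblasts summed to 22.9 to 23.6 CPM in shTFE3 and 22.8 to 23.1 CPM in shControl, with CDH5 at 0 counts throughout. Within that sum, COL1A1 had 6.23 and 6.63 CPM in shTFE3 and 8.27 and 8.39 CPM in shControl (edgeR adjusted p 0.0554). PDGFRB had 12.9 and 12.4 CPM in shTFE3 and 11.5 and 11.3 CPM in shControl, PECAM1 had 3.78 and 3.26 CPM in shTFE3 and 2.81 and 3.17 CPM in shControl, and CD14 had 10 and 11 counts in shTFE3 and 2 and 2 counts in shControl. PDGFRB and PECAM1 did not pass, and CD14 was not tested. Whether these differences bear on the values below was not tested.

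Of the 32 genes, 29 passed the filter on low counts and were tested, 5 rose, 7 fell and 17 did not pass (adjusted p under 0.05 by edgeR's quasi-likelihood test, Benjamini-Hochberg over all genes tested). Among all 15950 genes tested, 10.3% rose, 12.9% fell and 23.3% changed in either direction, against 17.2%, 24.1% and 41.4% of the 29. The 5 rises include NDUFA4L2, which passed the filter only through its counts in shTFE3, and without it 4 of 28 members rose. With the filter raised to 50 counts in 2 libraries, 4 of 27 members rose and 7 fell, against 13.8% and 15.6% of all genes, or 29.4% in either direction. The median log2 fold change of the 29 was -0.013 and that of all genes tested 0.0015, so the rises and falls left the middle of the group near 0. Of the 12 called genes, 9 changed by less than 0.5 on the log2 scale. The median absolute log2 fold change of called genes was 0.376 among the members and 0.373 among all genes tested. With library totals in place of TMM factors, 6 members rose and 5 fell, and the split over all genes was 2119 up (13.3%) and 1680 down (10.5%), against 1650 up and 2059 down with TMM factors. The levels of the arms did not overlap for 21 of the 29, or 72.4%, while this held for 60.3% of all genes tested. Without shTFE3 replicate 1, 2 members rose and 3 fell, against 3.93% and 6.15% of all genes. Without shTFE3 replicate 2, 2 rose and 5 fell, against 3.07% and 5.17%. Without shControl replicate 1, 3 rose and 7 fell, against 6.56% and 9.44%, and without shControl replicate 2, 4 rose and 4 fell, against 6.61% and 9.41%. The share of all genes called thus also dropped when a library was left out.

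**Figure D1:**
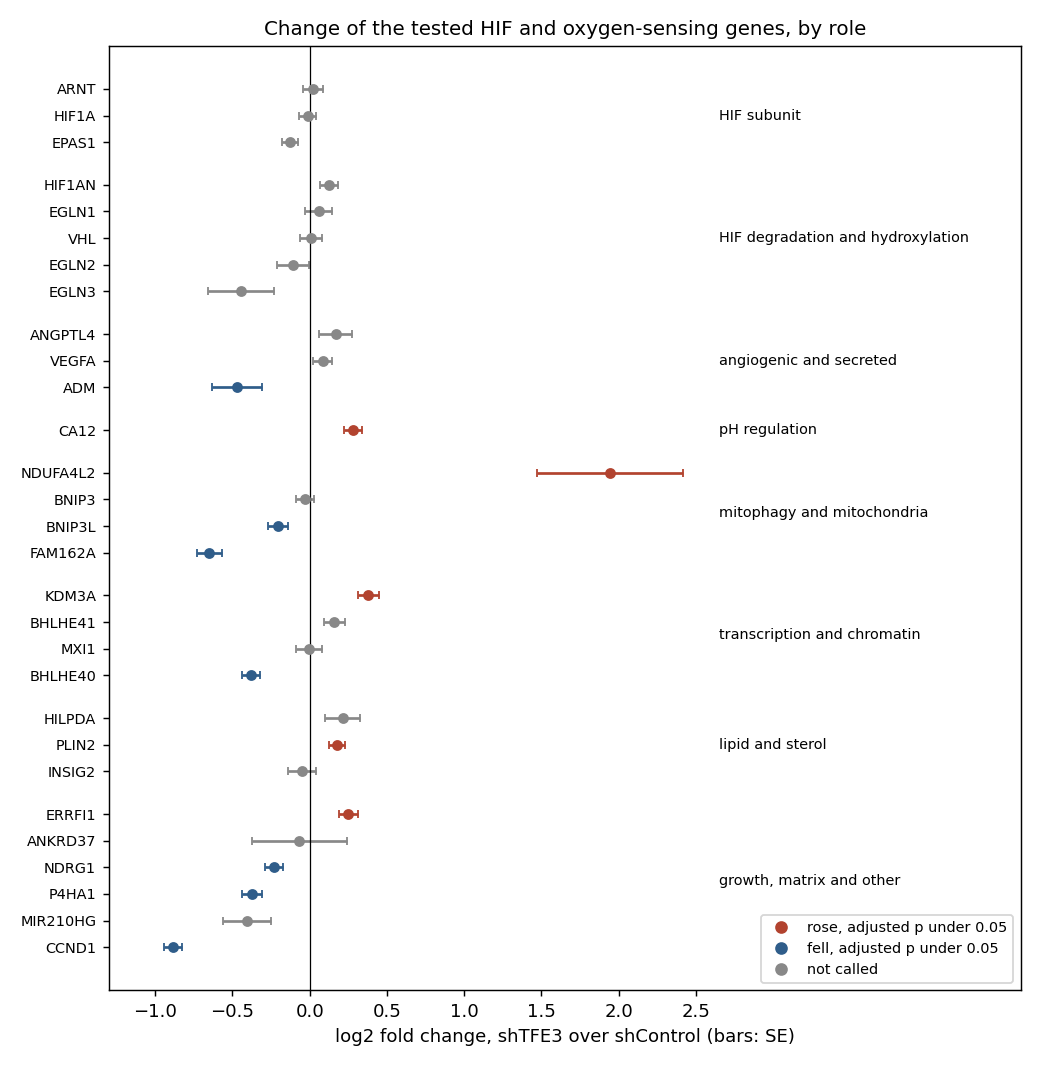
Log2 fold change (shTFE3 over shControl) of the 29 tested HIF and oxygen-sensing genes, grouped by role, with bars for the standard error. The HIF subunits and the hydroxylases lie near 0 or miss the test, while called falls (CCND1 at -0.88) and rises (KDM3A at 0.38) are spread over the target groups.

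None of the 3 HIF subunits and none of the 5 genes of HIF hydroxylation and degradation passed edgeR's test. EPAS1, HIF1AN and EGLN3 nevertheless had unadjusted edgeR p-values of 0.0262, 0.0497 and 0.0489. DESeq2 and limma-voom called none of these 8 either. HIF1A had 780 and 698 CPM in shTFE3 and 736 and 756 CPM in shControl, so the knockdown libraries lay on both sides of the controls (log2 fold change -0.013, SE 0.057). EPAS1 had 340 and 343 CPM in shTFE3 and 375 and 371 CPM in shControl. Its arms did not overlap, and its log2 fold change was -0.13 (SE 0.053, adjusted p 0.0907 by edgeR). ARNT had 80.7 and 75.2 CPM in shTFE3 and 77.9 and 75.6 CPM in shControl, arms that overlapped (log2 fold change 0.023, SE 0.066). Per kb of exon, HIF1A was the most abundant of all 32 genes, and its level was 3.25 and 2.89 times that of EPAS1 in shTFE3 and 2.79 and 2.89 times in shControl.

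VHL, the substrate receptor of the ligase, had nearly the same level in each library, 42.3 and 42.2 CPM in shTFE3 and 42.3 and 41.8 CPM in shControl (log2 fold change 0.0085, SE 0.074). Among the prolyl hydroxylases the order of levels per kb was EGLN1 (4.07 CPM per kb in shTFE3, 3.91 in shControl), EGLN2 (2.26 and 2.44) and EGLN3 (0.331 and 0.45), the same in every library. EGLN3, itself a HIF target that rises in hypoxia, had only 39 and 48 counts in shTFE3 and 53 and 60 counts in shControl (log2 fold change -0.45, SE 0.21, edgeR adjusted p 0.142). The log2 fold changes of EGLN1 and EGLN2 were 0.058 (SE 0.085) and -0.11 (SE 0.1). EGLN2 shares 30.6% of its exonic bases with the read-through gene RAB4B-EGLN2, so its separate level is uncertain. HIF1AN had 128 and 124 CPM in shTFE3 and 119 and 112 CPM in shControl (log2 fold change 0.12, SE 0.06, edgeR adjusted p 0.144).

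**Figure D2:**
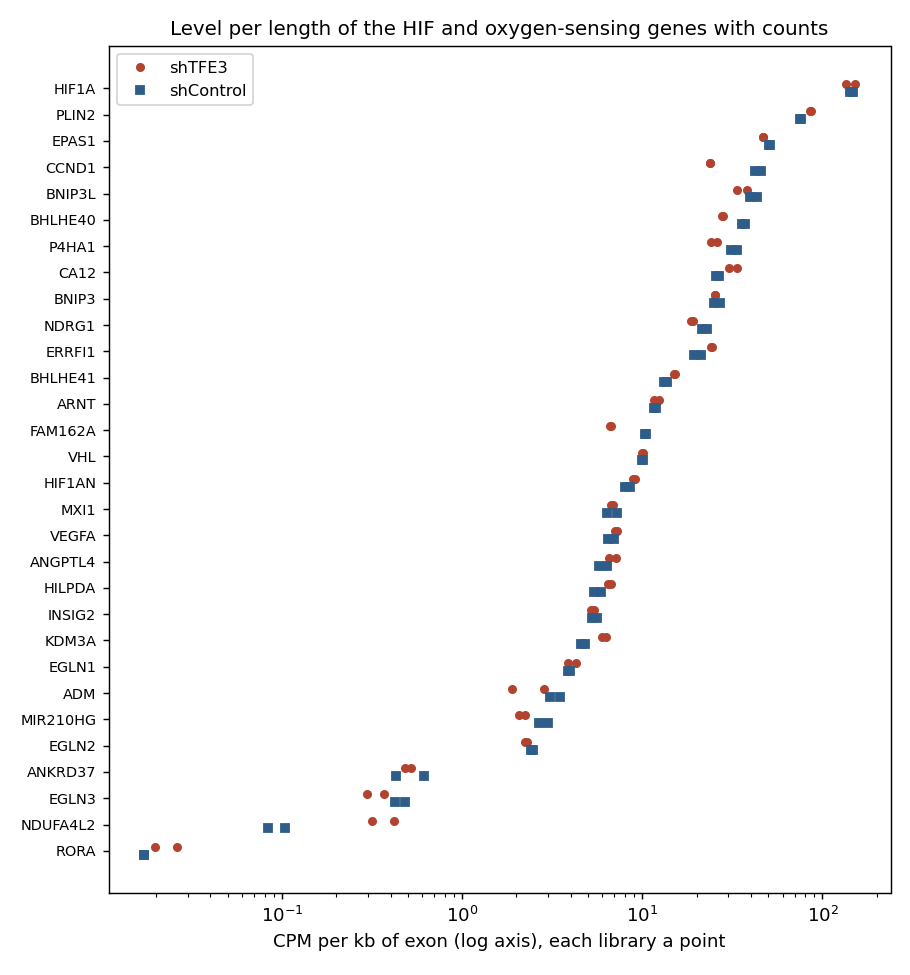
CPM per kb of exon in each library (log axis) of the 30 HIF and oxygen-sensing genes with counts, shTFE3 as circles and shControl as squares. HIF1A and PLIN2 stand at the top, EGLN3, NDUFA4L2 and RORA at the bottom, and the arms separate most clearly for CCND1, FAM162A and NDUFA4L2.

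Among the secreted products, ADM, which encodes the vasodilator peptide adrenomedullin, was the only one of the 3 tested that passed. It had 5.12 and 7.76 CPM in shTFE3 and 8.38 and 9.45 CPM in shControl. The knockdown libraries differed more than the gap of the arms, and the fall (log2 fold change -0.47, SE 0.16, edgeR adjusted p 0.0358) rested on shTFE3 replicate 1. Without that library the value was -0.20 with an edgeR adjusted p of 0.421, and without shControl replicate 2 it was -0.38 with 0.177. DESeq2 gave ADM an adjusted p of 0.201, and with library totals its edgeR adjusted p was 0.0563. VEGFA, the main angiogenic growth factor of renal carcinoma, had 104 and 102 CPM in shTFE3 and 93.4 and 100 CPM in shControl (log2 fold change 0.084, SE 0.062, edgeR adjusted p 0.367). ANGPTL4, an inhibitor of lipoprotein lipase, stood at a log2 fold change of 0.17 (SE 0.11, adjusted p 0.273 by edgeR). EPO, the red cell hormone, had 0 counts in all libraries, which allows up to 3 counts, or 0.17 CPM in shTFE3 replicate 2 and 0.174 CPM in shControl replicate 2, for counting error only.

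Carbonic anhydrases with an active site outside the cell, which acidify the medium, were represented by CA9 and CA12. CA9, a classical marker of HIF activity in renal carcinoma, had 0 counts in all 4 libraries, with the same limit as EPO. In GENCODE release 29, 38.5% of its exonic bases lie opposite ARHGEF39, and reads there cannot be assigned without the strand. CA12 had 246 and 221 CPM in shTFE3 and 188 and 196 CPM in shControl, arms that did not overlap. It rose by 0.28 on the log2 scale (SE 0.06, edgeR adjusted p 0.00101). Without shTFE3 replicate 1, the higher of the knockdown libraries, the value of CA12 was 0.20 with an edgeR adjusted p of 0.0778.

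Of the 4 mitochondrial targets, FAM162A and BNIP3L fell, BNIP3 did not pass, and NDUFA4L2 was at the edge of detection. FAM162A (ENSG00000114023, chromosome 3, 122384176 to 122412334, plus strand, GRCh38), a mitochondrial protein linked to cell death in hypoxia, had 25.0 and 25.4 CPM in shTFE3 and 39.3 and 39.8 CPM in shControl. Replicates lay within 0.5 CPM of each other and the arms were far apart, at 63.7% of the control level (log2 fold change -0.65, SE 0.08, edgeR adjusted p 1.18e-06). The authors' deposited table of 546 selected genes lists FAM162A at -0.65 on the log2 scale (SE 0.117, adjusted p 9.22e-07). BNIP3L, a mitophagy receptor, had 164 and 145 CPM in shTFE3 and 169 and 186 CPM in shControl. Its fall was small and its nearest libraries close (log2 fold change -0.20, SE 0.065, edgeR adjusted p 0.0237). BNIP3L did not pass without shTFE3 replicate 1 (-0.30, edgeR adjusted p 0.0667), shTFE3 replicate 2 (-0.12, 0.367) or shControl replicate 2 (-0.13, 0.295). Its adjusted p was also 0.0681 by DESeq2 and 0.0685 by edgeR with library totals. In GENCODE release 29, 7.66% of its exonic bases are shared with PNMA2. BNIP3, the related receptor, overlapped between arms, with 135 and 135 CPM in shTFE3 and 132 and 144 CPM in shControl (log2 fold change -0.031, SE 0.06). The 44 pseudogene copies of BNIP3 in the table held at most 13 counts in any library.

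NDUFA4L2, a HIF target related to a subunit of the respiratory chain and strongly expressed in clear cell tumours, was near the limit of detection here. It had 16 and 21 counts in shTFE3 and 5 and 4 counts in shControl. The gene passed the filter only through its counts in shTFE3, so a rise was the only change it could show, and without it 4 of 28 members rose. It rose by 1.94 on the log2 scale (SE 0.47, edgeR adjusted p 0.00335). Without shTFE3 replicate 2 the value was 1.73 with an edgeR adjusted p of 0.0684, and DESeq2 gave no adjusted p. NDUFA4L2 alone of the 29 tested members changed at least 2-fold, and 0 of the other 28 did. The share of all genes tested that passed and changed at least 2-fold was 2.17%, too small to compare with counts of this size.

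**Figure D3:**
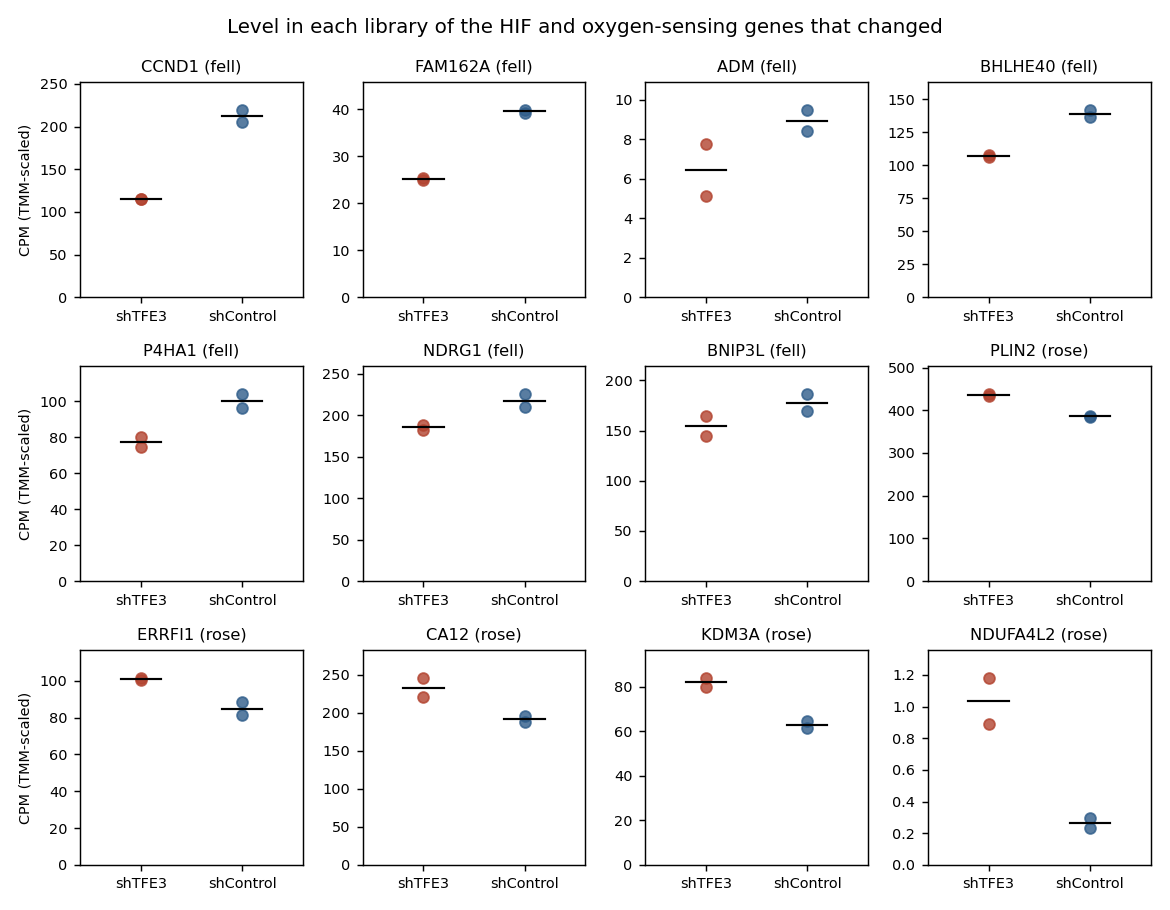
CPM in each library of the 12 HIF and oxygen-sensing genes that changed, ordered by log2 fold change, with shTFE3 left of shControl and a line at the mean of 2 libraries. Each axis starts at 0 and has its own scale. CCND1 sits at 115 CPM in both shTFE3 libraries, against 205 and 219 CPM in shControl, while ADM shows 5.12 and 7.76 CPM in shTFE3, against 8.38 and 9.45 CPM in shControl.

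Among the transcription and chromatin genes, one rose and one fell by nearly the same amount. KDM3A (ENSG00000115548, chromosome 2, 86440647 to 86492716, plus strand), a histone H3 lysine 9 demethylase that itself needs oxygen, had 84.0 and 80.0 CPM in shTFE3 and 61.5 and 64.6 CPM in shControl. It rose by 0.38 on the log2 scale (SE 0.066, edgeR adjusted p 0.000125), to 130% of the control level. BHLHE40 (ENSG00000134107, chromosome 3, 4979116 to 4985323, plus strand), a helix-loop-helix repressor of the circadian clock, had 108 and 106 CPM in shTFE3 and 136 and 142 CPM in shControl. It fell by 0.38 on the log2 scale (SE 0.059, edgeR adjusted p 3.12e-05). Its paralog BHLHE41 had 59.3 and 59.8 CPM in shTFE3 and 54.3 and 52.3 CPM in shControl, on the other side of 0 but short of the threshold (log2 fold change 0.16, SE 0.069, edgeR adjusted p 0.098). With library totals in place of TMM factors BHLHE41 passed at 0.20 on the log2 scale (edgeR adjusted p 0.039). MXI1, an antagonist of MYC, had arms that overlapped (log2 fold change -0.0019, SE 0.085). RORA, a nuclear receptor, had 8 and 6 counts in shTFE3 and 5 and 5 counts in shControl and was not tested.

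The upstream sequences of FAM162A, BHLHE40 and KDM3A are shown because these genes kept their calls with each library left out, as did CCND1, for which no window was used. Each is the stretch of 250 bases before the RefSeq start on GRCh38.p14, at chr3:122383932-122384181, chr3:4979187-4979436 and chr2:86441121-86441370, all on the plus strand. Capitals mark the HIF response element cores ACGTG and GCGTG on either strand, which read CACGT and CACGC on the strand shown.
FAM162A: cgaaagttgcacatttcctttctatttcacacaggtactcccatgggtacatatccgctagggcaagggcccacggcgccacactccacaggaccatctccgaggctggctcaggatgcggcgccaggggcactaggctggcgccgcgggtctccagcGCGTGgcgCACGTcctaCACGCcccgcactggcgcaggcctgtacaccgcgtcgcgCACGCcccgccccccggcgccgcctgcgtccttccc
BHLHE40: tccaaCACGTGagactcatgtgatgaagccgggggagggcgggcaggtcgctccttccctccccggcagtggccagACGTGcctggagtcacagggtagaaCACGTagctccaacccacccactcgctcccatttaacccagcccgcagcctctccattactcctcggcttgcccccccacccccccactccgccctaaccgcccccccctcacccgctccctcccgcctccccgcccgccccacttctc
KDM3A: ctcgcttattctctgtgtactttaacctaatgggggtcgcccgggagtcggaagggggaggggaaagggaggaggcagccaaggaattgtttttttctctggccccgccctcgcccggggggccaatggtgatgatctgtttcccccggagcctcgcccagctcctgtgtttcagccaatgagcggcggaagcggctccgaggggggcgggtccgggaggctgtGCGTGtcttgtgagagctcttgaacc
FAM162A held 4 cores within the last 92 bases before its start. BHLHE40 held 4, of which 2 are the opposite strands of one CACGTG that begins 245 bases upstream, and a TCATGTGA begins 235 bases upstream. KDM3A held 1, the GCGTG that begins 26 bases before this start and 116 bases before its other RefSeq start.

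Over windows of 250 bases before to 50 bases after each RefSeq start, 25 of the 32 members matched a window, and BNIP3L, CCND1, HILPDA, NDRG1, NDUFA4L2, VEGFA and VHL did not. An ACGTG or GCGTG stood in at least one window of 20 of the 25, or 80.0%, and in those of 52.4% of all 27305 genes with a window. The E-box CACGTG, each of which also counts as ACGTG on both strands, stood in windows of 6 of the 25 members and of 8.77% of all genes. Those 6 were BHLHE40, which fell, PLIN2, which rose, and ANKRD37, BNIP3, BHLHE41 and EGLN2, which did not pass. The longer sites TCACGTGA and TCATGTGA stood in windows of 0 and 1 members and of 1.18% and 1.24% of all genes, and GTCACGTG in windows of 2 members (PLIN2 and EGLN2, 8% of 25) and of 2.93% of all genes. Of the members with a window, all 4 that fell and 3 of the 4 that rose held a core, as did 13 of the 17 others. Many of the members are known HIF targets, and why their share of cores differs from that of all genes was not tested. The letters alone show no binding.

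Of the 3 lipid genes, 1 rose and 2 did not pass. PLIN2, the coat protein of lipid droplets, was the second most abundant member per kb and had 434 and 438 CPM in shTFE3 and 384 and 388 CPM in shControl. It rose by 0.18 on the log2 scale (SE 0.053, edgeR adjusted p 0.0164) with tight replicates. Its log2 fold change stayed between 0.17 and 0.18 with any library left out, but its edgeR adjusted p was then 0.0677 without shTFE3 replicate 1, 0.0849 without shTFE3 replicate 2, 0.167 without shControl replicate 1 and 0.127 without shControl replicate 2. HILPDA, a lipid droplet protein that inhibits triglyceride lipolysis, had 13.8 and 13.3 CPM in shTFE3 and 12.2 and 11.2 CPM in shControl (log2 fold change 0.21, SE 0.11, edgeR adjusted p 0.188). INSIG2, which holds the sterol sensor SCAP in the endoplasmic reticulum, had a log2 fold change of -0.05 (SE 0.093) and arms that overlapped.

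The genes of growth and matrix held the largest fall. CCND1 (ENSG00000110092, chromosome 11, 69641087 to 69654474, plus strand), which encodes cyclin D1, the activator of CDK4 and CDK6 and a HIF target in renal carcinoma, had 115 and 115 CPM in shTFE3 and 219 and 205 CPM in shControl. It stood at 54.2% of the control level (log2 fold change -0.88, SE 0.059, edgeR adjusted p 3.69e-11), about as far below control as TFE3 itself at 52.9%. The authors' deposited table lists CCND1 at -0.88 on the log2 scale (SE 0.0707, adjusted p 4.74e-33), and CCND1 and FAM162A were the 2 members in it. In GENCODE release 29, 10.3% of the exonic bases of CCND1 lie opposite LTO1, which had 22.0 and 21.6 CPM in shTFE3 and 19.6 and 19.3 CPM in shControl. P4HA1, a subunit of the collagen prolyl hydroxylase, had 74.5 and 80.0 CPM in shTFE3 and 96.0 and 104 CPM in shControl and fell by 0.37 on the log2 scale (SE 0.066, edgeR adjusted p 0.000141). Without shTFE3 replicate 1 its value was -0.32 with an edgeR adjusted p of 0.0562.

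NDRG1, a growth regulator induced by hypoxia, had 188 and 183 CPM in shTFE3 and 210 and 225 CPM in shControl. It fell by 0.23 on the log2 scale (SE 0.057, edgeR adjusted p 0.0041). NDRG1 did not pass without shTFE3 replicate 1 (-0.25, edgeR adjusted p 0.0685), shTFE3 replicate 2 (-0.21, 0.107) or shControl replicate 2 (-0.18, 0.127). ERRFI1, an inhibitor of the EGF receptor, had 100 and 102 CPM in shTFE3 and 81.4 and 88.4 CPM in shControl and rose by 0.25 on the log2 scale (SE 0.064, edgeR adjusted p 0.00503). ERRFI1 did not pass without shTFE3 replicate 1 (0.26, edgeR adjusted p 0.0885), shTFE3 replicate 2 (0.24, 0.106) or shControl replicate 1 (0.19, 0.127). MIR210HG, the host transcript of the hypoxia microRNA miR-210, had 86 and 92 counts in shTFE3 and 119 and 106 counts in shControl, a value of -0.41 that missed the threshold (SE 0.16, edgeR adjusted p 0.0636). ANKRD37 had 24 and 22 counts in shTFE3 and 19 and 27 counts in shControl, and 35.2% of its exonic bases lie opposite UFSP2.

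**Figure D4:**
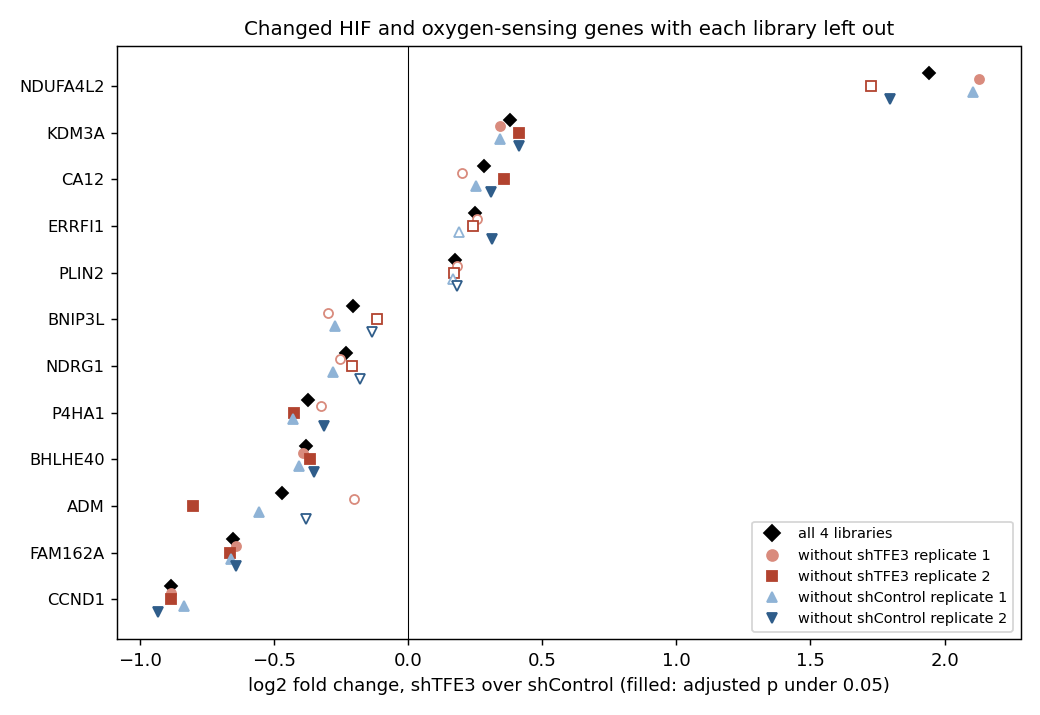
Log2 fold change (shTFE3 over shControl) of the 12 changed HIF and oxygen-sensing genes with all 4 libraries and with each library left out, filled where the edgeR adjusted p is under 0.05. CCND1, FAM162A, BHLHE40 and KDM3A are filled in every fit, and the other 8 have at least one open symbol.

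Of the 12 calls, 4 (CCND1, FAM162A, BHLHE40 and KDM3A) held with each library left out. The first 3 of these also passed under every other setting that was tried, while KDM3A, tested without a filter on low counts, had an edgeR adjusted p of 0.0701. That setting ended 9 of the 12 calls, left 0 rises and 3 falls, and called 0.325% of all genes as rising and 0.876% as falling, or 1.2% in all. By DESeq2, 4 members rose and 5 fell, against 6.46% and 10% of all genes, and with the replicate number as a block 5 rose and 7 fell, against 9.83% and 12.5%. The block fit had infinite prior degrees of freedom, against 22.4 in the main fit, so its counts are not on equal terms. The fits with a library left out were also unequal. Their prior degrees of freedom were 4.32 without either shTFE3 library and infinite without either shControl library. How many of all called genes held with each library left out was not counted, so no share stands beside the 4 of 12.

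**Figure D5:**
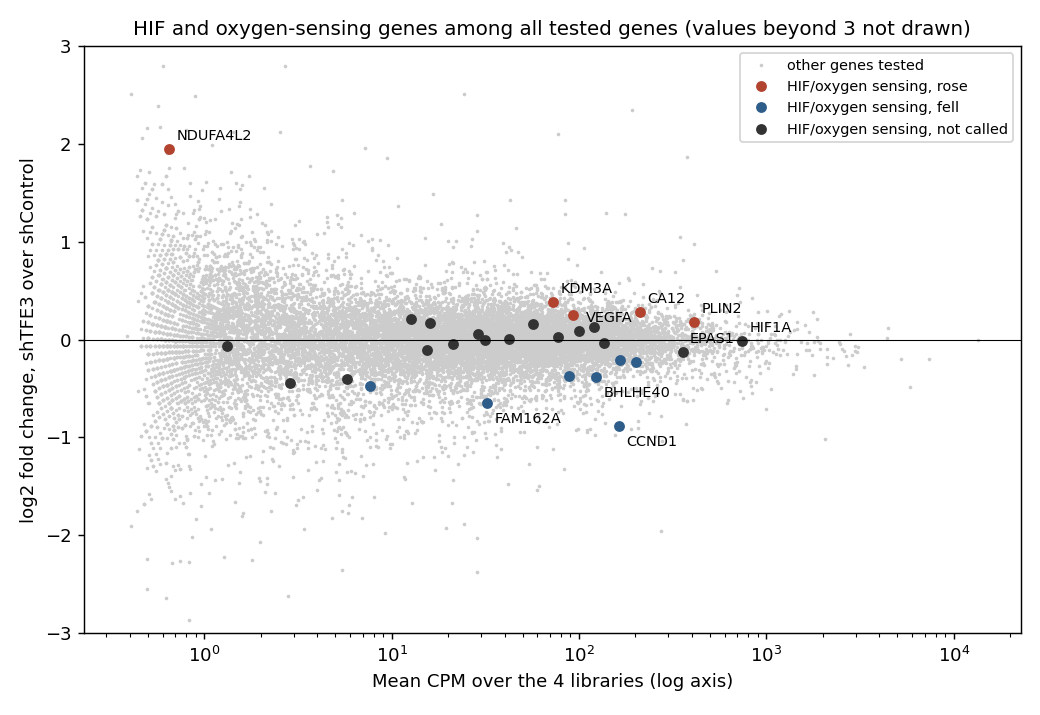
Mean CPM over the 4 libraries (log axis) against log2 fold change (shTFE3 over shControl) for the 15950 tested genes in grey (those beyond 3 in either direction are not drawn), with HIF and oxygen-sensing genes marked by their call. CCND1 lies at -0.88, and HIF1A, the member with the highest CPM, lies at -0.013.

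Further genes of the pathway also rose and fell. Of 18 further genes of the sensing machinery and HIF cofactors, all tested, 5 rose (27.8%) and 3 fell (16.7%), against 10.3% and 12.9% of all genes tested, with a median log2 fold change of 0.061. CUL2, the scaffold of the VHL ligase, had 287 and 284 CPM in shTFE3 and 220 and 231 CPM in shControl (log2 fold change 0.34, SE 0.055, edgeR adjusted p 4.92e-05). Other subunits of that ligase did not rise with it. ELOB fell (log2 fold change -0.20, edgeR adjusted p 0.0428), and ELOC (-0.026) and RBX1 (0.067) did not pass. CREBBP, a histone acetyltransferase recruited by HIF, rose by 0.30 on the log2 scale (edgeR adjusted p 0.000637). Its paralog EP300 did not pass (log2 fold change 0.12, edgeR adjusted p 0.182). HIF3A, a further alpha subunit, was scarce and fell, with 59 and 59 counts in shTFE3 and 112 and 114 counts in shControl (log2 fold change -1.0, SE 0.17, edgeR adjusted p 7.3e-05). ARNT2, a paralog of ARNT, had 119 and 102 counts in shTFE3 and 172 and 166 counts in shControl (log2 fold change -0.68, SE 0.14, edgeR adjusted p 0.000621), and without shTFE3 replicate 2 its value was -0.58 with an edgeR adjusted p of 0.061. Fewer of the 18 rose or fell with either shTFE3 library left out, and the share of all genes called then also dropped. Tested without a filter on low counts, CUL2, ARNT2 and CREBBP had edgeR adjusted p-values of 0.0557, 0.0786 and 0.0719.

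Of 44 further HIF targets outside glycolysis, 39 were tested, 8 rose (20.5%) and 11 fell (28.2%), against 10.3% and 12.9% of all genes tested, with a median log2 fold change of -0.042. PDGFB, STC2 and LOXL2, which encode secreted proteins, were among those that fell. PDGFB, a growth factor chain, had 9.57 and 9.84 CPM in shTFE3 and 24.9 and 23.8 CPM in shControl (log2 fold change -1.33, SE 0.1, edgeR adjusted p 7.04e-10). STC2, a secreted glycoprotein, fell by 0.91 on the log2 scale and the collagen cross-linking enzyme LOXL2 by 0.56 (edgeR adjusted p 6.24e-09 and 2.07e-08). Of 21 glycolytic HIF targets, all tested, 8 fell (38.1%) and 1 rose (4.76%), against 12.9% and 10.3% of all genes, with a median log2 fold change of -0.12. By p, the falls were led by the enolase gene ENO2, with a log2 fold change of -1.67, PFKFB3 with -0.42 and PFKP with -0.39, and the rise was that of the hexokinase gene HK2, with 0.84. In all 3 lists together, 14 of 78 tested genes rose (17.9%) and 22 fell (28.2%), against 10.3% and 12.9% of all genes, and with library totals in place of TMM factors 15 rose and 16 fell, against 13.3% and 10.5%. With shTFE3 replicate 1 left out, 5 rose and 13 fell, against 3.93% and 6.15% of all genes, and with shTFE3 replicate 2 left out 8 rose and 13 fell, against 3.07% and 5.17%. By DESeq2, 8 rose and 18 fell, against 6.46% and 10% of all genes. Among the targets outside glycolysis, 2 rose and 6 fell without shTFE3 replicate 1, 4 rose and 5 fell without shTFE3 replicate 2, 5 rose without shControl replicate 1 (6.56% of all genes) and 6 fell without shControl replicate 2 (9.41%). By DESeq2, 4 of these targets rose and 8 fell. Fewer of the glycolytic targets fell without shTFE3 replicate 1, and the share of all genes that fell then also dropped. Tested without a filter on low counts, STC2, PFKFB3 and PFKP had edgeR adjusted p-values of 0.0795, 0.0647 and 0.0625.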

How the data were processed

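RNA selected with oligo-dT was sequenced as paired 150-base reads from 4 Caki-1 libraries. The submitters' processing notes name hg38, STAR, featureCounts, Trim Galore and DESeq2, with no versions. Annotation, strand setting and the treatment of multi-mapping reads were not given in the sources used here, so levels of overlapping or near-identical genes are uncertain. The authors deposited raw counts per Ensembl gene, which were the input here. The authors also deposited their own log2 fold changes, standard errors (a score column here) and adjusted p-values for 546 selected genes, and its numbers are printed only as the authors' own.

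Groups came from the sample titles. Symbols were matched through a gene name table, and all 32 members matched 1 identifier each. Coordinates, exonic lengths and overlaps come from GENCODE release 29 (GRCh38), perhaps not the annotation used for counting, and promoter windows come from RefSeq on GRCh38.p14. The main test was edgeR 4.0.16 (R 4.3.3) on the counts: TMM factors, filterByExpr by group, the arm as the model's term, and quasi-likelihood tests, with p-values adjusted by Benjamini-Hochberg over 15950 genes, which held 99.8% of all counts. Replicates varied by 4.16% (the root of edgeR's common dispersion), a spread that may be technical. The standard error is the absolute log2 fold change over the root of the F statistic. Chi-square over degrees of freedom between replicate counts was 3.63 in shTFE3 and 2.14 in shControl, above sampling noise, and each library was counted as a replicate. Levels between genes were compared as CPM per kb. The procedure was checked on counts simulated with the spread that edgeR fitted to these libraries. Such counts follow the model, so the check cannot show whether these libraries do.

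Members and lists were chosen with earlier results of these data known. All members are reported, with the targeted gene and up to 4 called genes of smallest p from each of 3 further lists, of which 1 is not reported here. LTO1, ELOB, ELOC, RBX1, EP300 and BHLHE41 under library totals were picked with their values in view. The alternatives tried were size factors, filters, DESeq2 1.42.0, limma-voom (limma 3.58.1), a replicate block and each library left out.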

Additional observations from a re-analysis of the deposited data

How the results depend on the processing

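With median-of-ratios size factors, with limma-voom and with at least 50 counts in 2 libraries, the counts of called HIF and oxygen-sensing genes and of further pathway genes stayed within 1.5 times of those reported. With no filter on low counts, 0 HIF and oxygen-sensing genes rose and 3 fell, and 1 further gene rose and 5 fell, while 104 genes rose and 280 fell in all. By DESeq2, 8 further genes rose, and 851 rose and 1317 fell among all genes. With a library left out, the HIF and oxygen-sensing genes that rose numbered 2 to 4 and those that fell 3 to 7, and the further genes 5 to 12 and 13 to 17. All genes then numbered 489 to 1054 up and 825 to 1505 down. DESeq2 gave no adjusted p for NDUFA4L2 and ANKRD37. By list, the sensing partners had 0 up and 1 down with no filter and 3 up by DESeq2, the targets outside glycolysis 0 up and 3 down with no filter and 4 up by DESeq2, and the glycolytic targets 1 down with no filter. With a library left out, the lowest counts were 2 up and 1 down for partners, 2 up and 5 down for targets outside glycolysis and 5 down for glycolytic targets. The causes were not tested, except that fits with a library left out hold fewer samples. Their prior degrees of freedom were 4.32 without either shTFE3 library and infinite without either shControl library, against 22.4 with all 4, so their counts are not on equal terms.

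Directions turned only for genes near 0 that were not called. With library totals, HIF1A had 0.023, BNIP3 0.0051 and MXI1 0.035. MXI1 had 0.0067 with at least 50 counts and 0.00076 by limma-voom, and VHL had -0.0019 with no filter. With a library left out, the ranges were -0.096 to 0.064 for HIF1A, -0.029 to 0.072 for ARNT, -0.014 to 0.12 for EGLN1, -0.090 to 0.029 for BNIP3, -0.30 to 0.21 for ANKRD37 and -0.090 to 0.092 for MXI1. The deviations of same-numbered libraries had a correlation of -0.029, so the numbers were not taken as pairs. With the replicate block, 5 HIF and oxygen-sensing genes rose and 7 fell, and 15 further genes rose and 17 fell. That fit too had infinite prior degrees of freedom.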
